A study of Rattus norvegicus with 3 samples.

Results

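The 10 genes described here are Ifit1, Ifit2, Ifit3, Mx1, Mx2, Oasl, Isg15, Rsad2, Usp18 and Irf7, a core set of genes that interferon switches on. Their transcripts were measured in the motor cortex of 3 rats, Sprague-Dawley males, after cerebral ischemia and reperfusion, in which the blood supply of the brain is cut off and then restored. Each symbol matched 1 row among the 30957 genes listed per library, so all 10 were found. The list was chosen from genes whose values in these same rats were already known, so the statement of which rat was highest is a description and carries no test.

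The rats are numbered 19, 35 and 70, and all values below are given in that order. They share 1 treatment, strain, sex and tissue, and all are labelled 8 weeks, without saying whether this is an age or a time after the operation. No control group was analysed here, so nothing below says what ischemia did. The 3 libraries came from 3 rats, 1 each, so the spread between libraries holds both biological and technical variation. Levels are in FPKM, which is a fragment count divided by gene length and library size, and 1 FPKM on a gene of 1 kb rested on 15.6, 16.5 and 16.0 fragments. In bulk tissue, fewer cells of a type and less RNA per cell cannot be told apart.

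The library of rat 35 stood apart. The summed FPKM of 8 neuronal markers was 1179, 48.6 and 1652, and that of 6 markers of motor cortex and deep layers, among them Fezf2 and Bcl11b, was 126, 13.1 and 152. The markers of the labelled tissue were thus present in rats 19 and 70 and mostly low in rat 35, and results are also given without that rat. Markers of phagocytes summed to 487, 6588 and 460, and those of fibroblasts and meninges to 242, 2629 and 216, both highest in rat 35. The part of these cells in the results below was not tested.

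Type I interferons are secreted when a cell senses foreign or misplaced nucleic acid. They bind the receptor IFNAR, whose kinases JAK1 and TYK2 activate transcription factors that enter the nucleus. There the complex ISGF3 binds the interferon-stimulated response element (ISRE) in the promoters of many genes. The effectors among them block viral RNA and protein, while regulators such as Irf7 and Usp18 amplify or shut down the signal. In the brain, microglia, astrocytes, endothelial cells and neurons can all respond.

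The ISRE is what many genes of this kind share, and it is shown here for the members whose promoters held it. RefSeq promoter windows of the build GRCr8, from 250 bases before to 50 bases after the annotated start, were given for 5 of the 10 members. The core of the element was searched as GAAANNGAA on both strands. It was found in the windows of Ifit3, Irf7 and Rsad2 and not in those of Mx1 and Oasl. In the lines below, written 5′ to 3′ on the gene's own strand, capitals mark the match, which lies on the opposite strand in each case. The stretches are chr1:241527273-241527320 on the plus strand for Ifit3, chr1:205800073-205800101 on the minus strand for Irf7 and chr6:48788248-48788276 on the minus strand for Rsad2, and each lies upstream of the start that the table gives.
Ifit3: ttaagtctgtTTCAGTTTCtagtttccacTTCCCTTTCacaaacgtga
Irf7: cagtttaggtTTCATTTTCccgagacgca
Rsad2: tggttcaactTTCATTTTCagaaaacaga

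Ifit3 held 2 matches, which began 43 and 24 bases before its start, and Irf7 and Rsad2 held 1 each, at 68 and 146 bases. Of all 33469 windows of this length, 9.71% held the core. Among 37 windows of a wider set of type I interferon-induced genes, 24 did (64.9%), and among 23 windows of interferon gamma-induced genes, 17 did (73.9%). The gamma-activated sequence TTCNNNGAA was in none of the 5 member windows, in 8 of the 37, in 7 of the 23 (30.4%) and in 8.87% of all windows. A match in these letters is a description and not a bound site. Ifit3, with 2 matches, was also the member whose deposited values differed least between the rats, while Rsad2, with 1, was among those that differed most.

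Across the 10 genes, rat 19 was highest in 8 and rat 35 in 2. Of all 14134 genes whose mean reached 1 FPKM, rat 19 was highest in 24.8%, rat 35 in 45.4% and rat 70 in 29.8%. Rat 70 was lowest for 6 members, rat 35 for 3 and rat 19 for 1, beside 44.2%, 36.5% and 19.3% of all genes. Since the list was chosen with these values known, nothing is read from the comparison with all genes. The summed FPKM of the members was 239.6, 116 and 98. All 10 reached a mean of 1 FPKM, so no member was lost to that filter. Mx2 was the most abundant member in every rat (62.3, 26.9 and 23.4 FPKM). FPKM is divided by gene length, so it sets genes on 1 scale, within the limit that the authors' normalization and their treatment of shared fragments are unstated.

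**Figure D1:**
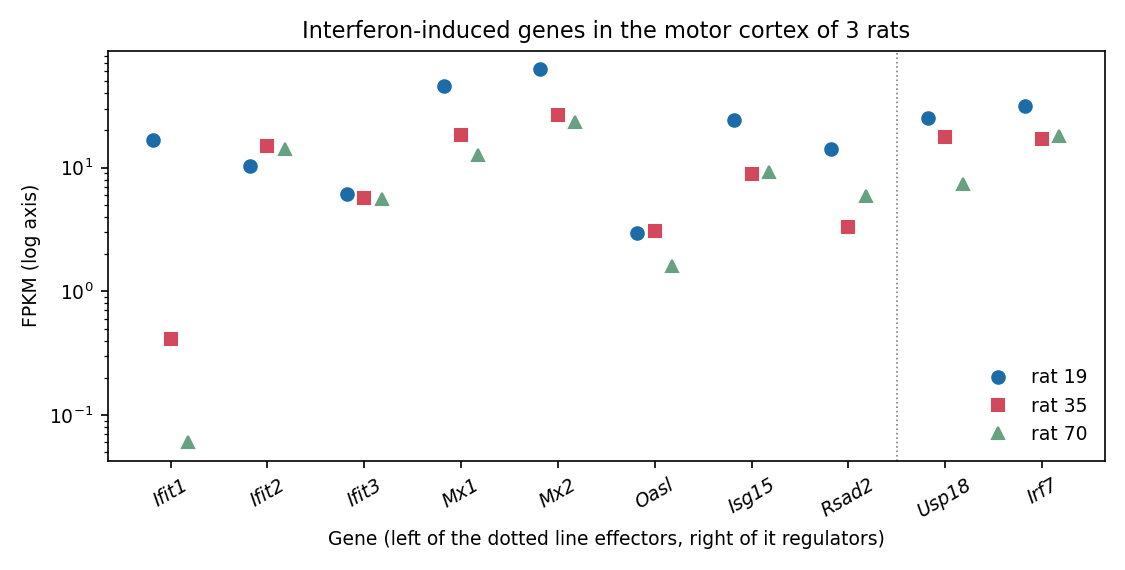
FPKM (log axis) of the 10 interferon-induced genes, 1 point per rat: circles rat 19, squares rat 35, triangles rat 70, with effectors left and regulators right of the dotted line. Rat 19 lies highest for 8 genes, Ifit1 spreads from 0.0603 to 16.7, and the 3 points of Ifit3 lie almost on each other.

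Differences were also taken on the scale log2(FPKM + 1), on which low genes are understated. On this scale 6 members were over 2-fold apart between their highest and lowest rat: Ifit1, Mx1, Mx2, Isg15, Rsad2 and Usp18. Among all genes tested, 42.5% were. In the first 5 of these, rat 19 was over 2-fold above each of the other rats, beside 1.27% of all genes. With rat 19 left out, only Usp18 was over 2-fold apart. The median member deviated from its 3-rat mean by 0.78, -0.29 and -0.42, whereas the median of all genes tested was at 0.02, 0.06 and -0.09.

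The Ifit genes encode cytoplasmic proteins that bind viral RNA, and Ifit1 recognises RNA whose cap lacks methylation. Ifit1 (chromosome 1, 252944103 to 252946170, Rnor 6.0) was at 16.7, 0.411 and 0.0603 FPKM (5.73 ± 9.52, SD, n = 3). It was abundant in rat 19 and nearly absent from both other rats. Whole fragments could be recovered from the deposited values, and they were 269, 7 and 1 at the shortest gene length that fits, or 538, 14 and 2 if the length is the whole span of 2068 bases. The ratio of rat 19 to rat 35 was 40.6, with a counting interval (exact 95% Clopper-Pearson, here and below) of 19.5 to 102. Against rat 70 it was 277, with an interval of 49.4 to 10998, because a single fragment or 2 carry the lower value.

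Ifit2 and Ifit3, its neighbours on the same chromosome, did not share this pattern. Ifit2, whose protein pairs with other IFIT proteins and can promote cell death, was at 10.3, 15.1 and 14.2 FPKM (13.2 ± 2.54, SD, n = 3), and lies at 252894663 to 252900726. Rat 19 was its lowest under every scaling, at 0.683 of rat 35 (interval 0.612 to 0.761), while its highest rat was 35 as deposited and 70 under each of the 3 other scalings. Ifit3, which in human cells stabilises IFIT1 on RNA, was at 6.15, 5.64 and 5.54 FPKM (5.78 ± 0.33, SD, n = 3), and lies at 252906234 to 252911373. Its rats lay closest together of all members as deposited, but not closer than those of Ifit2 with mitochondrial genes left out, and the counting intervals of all 3 ratios between rats held 1. The order in Ifit3 as deposited was therefore not detectable at this depth, and after rescaling each library to a common sum its highest rat was 70. With mitochondrial genes left out it was at 9.01, 6.96 and 7.51, for which no interval was taken.

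The Ifit cluster was also read in chromosomal order, as listed in the files: Ifit2, Ifit3, Ifit1lb on the other strand, and Ifit1. Ifit1lb, an Ifit1-like gene, was at 1.20, 1.81 and 1.91 FPKM, with rat 19 lowest. Beyond the cluster, Lipa, a lysosomal lipase gene (20.1, 56.1 and 15.9), and Slc16a12, a transporter gene (4.81, 15.1 and 3.13), were highest in rat 35. Within this stretch Ifit1 was the gene with the largest difference between rats (4.06 on the log2 scale, against 0.51 for Ifit2 and 0.13 for Ifit3). With a pseudocount of 0.1 the difference in Ifit1 was 6.71, and with mitochondrial genes left out that in Ifit2 and Ifit3 was 0.33 each. Ifit genes are similar in sequence, as are Mx and Oas genes, and the treatment of fragments shared between copies, like the strand setting of the counting, was not given in the sources used here. Its part in these values was not tested.

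Mx1 and Mx2 encode dynamin-like GTPases that trap viral particles and ribonucleoproteins, in rodents mainly in the nucleus for Mx1 and in the cytoplasm for Mx2. Mx1 (chromosome 11, 37891156 to 37914983) was at 45.9, 18.2 and 12.7 FPKM (25.6 ± 17.8, SD, n = 3). The ratio of rat 19 to rat 35 was 2.52 (interval 2.34 to 2.71) and that of rat 35 to rat 70 was 1.44 (1.3 to 1.59). Mx2, nearby on the same chromosome (38035450 to 38059950), had the same order (37.5 ± 21.5, SD, n = 3), with 2.32 (2.19 to 2.46) and 1.15 (1.07 to 1.23). As deposited, the order of the rats thus exceeded counting error at every step in both Mx genes. In Mx2, rats 35 and 70 lay closer together under the other scalings, at 25.74 and 24.96 by the median of ratios, without an interval. Whether that step exceeds counting error under another scaling was not tested. The ratio of Mx1 to Mx2 within a rat was 0.737, 0.679 and 0.542. Fam3b and Tmprss2, which flank Mx2 in the files, reached at most 0.188 FPKM in any rat.

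Isg15 encodes a ubiquitin-like protein that is attached to other proteins and also secreted. It was at 24.5, 8.88 and 9.20 FPKM (14.2 ± 8.9, SD, n = 3), and its row is on chromosome 5, 173624310 to 173626248. Rat 19 was 2.75 times rat 35 (interval 2.17 to 3.52), while rats 35 and 70 lay within counting error of each other (0.965, interval 0.720 to 1.29). Rsad2 (chromosome 6, 45655954 to 45669148) encodes viperin, a radical-SAM enzyme that makes a chain-terminating nucleotide. It was at 14.0, 3.31 and 5.93 FPKM (7.76 ± 5.59, SD, n = 3), and here rat 35 was the lowest. Rat 19 was 4.24 times rat 35 (interval 3.62 to 4.97), and rat 35 was 0.559 of rat 70 (0.467 to 0.667). Cmpk2, the neighbouring kinase gene that acts with viperin, was at 8.77, 3.42 and 9.28 FPKM, also lowest in rat 35 but with rat 70 highest, or rat 19 with mitochondrial genes left out.

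Oasl (chromosome 12, 47444104 to 47456894) encodes a 2′-5′-oligoadenylate synthetase-like protein that enhances RNA sensing in human cells. It was the least abundant member by mean, at 2.95, 3.10 and 1.61 FPKM (2.55 ± 0.818, SD, n = 3). Rats 19 and 35 lay within counting error of each other (0.952, interval 0.742 to 1.22), and rat 70 was lower than both. The highest rat was 35 as deposited and 19 with mitochondrial genes left out. Its neighbour Oasl2, which had the order of the Mx genes, was at 36.9, 22.1 and 11.9 FPKM.

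**Figure D2:**
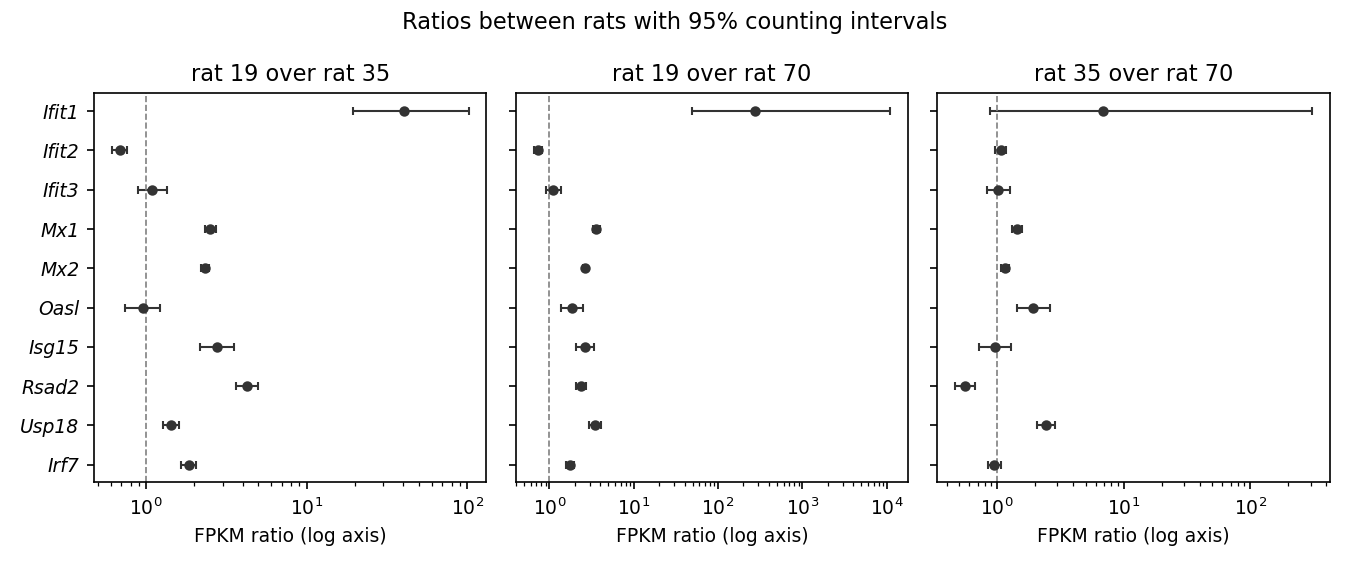
FPKM ratio (log axis) of the 10 genes for each pair of rats; points are ratios and bars are exact 95% counting intervals of the recovered fragments, with the dashed line at 1. The panels with rat 19 have most genes to the right of 1, while Ifit2 lies to the left, and Ifit1 has the widest bars.

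The 2 regulators among the members both had rat 19 as their highest, but they differed in what followed. Usp18 (chromosome 4, 153805993 to 153834430) encodes the protease that removes ISG15 from proteins and also blocks the IFNAR2 chain of the receptor, which makes it a brake on the response. It was at 25.3, 17.7 and 7.33 FPKM (16.8 ± 9.0, SD, n = 3). Its largest step was between rats 35 and 70, a ratio of 2.42 (interval 2.05 to 2.86), against 1.42 (1.27 to 1.60) between rats 19 and 35. Irf7 (chromosome 1, 214248837 to 214252456) encodes the transcription factor that drives interferon alpha genes and keeps the response going. It was at 31.6, 17.2 and 18.1 FPKM (22.3 ± 8.09, SD, n = 3). Rat 19 was 1.84 times rat 35 (1.66 to 2.05), and rats 35 and 70 as deposited lay within counting error (0.949, interval 0.843 to 1.07). Under the other scalings rats 35 and 70 lay further apart in Irf7, at 16.4 and 19.2 by the median of ratios, without an interval. The order 19, then 35, then 70 of the deposited values was that of Ifit1, Ifit3, Mx1, Mx2 and Usp18, 5 members, and of 10.6% of all genes tested. In the values as deposited, every step of it exceeded counting error in Mx1, Mx2 and Usp18. The step from rat 35 to rat 70 did not in Ifit1, and no step did in Ifit3.

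Of the 30 ratios between rats (10 genes and 3 pairs, which share rats), the counting interval held 1 in 8 and did not in 22. All were taken on the values as deposited, and none under another scaling. The intervals were not adjusted for their number, they cover counting error of these libraries only, and PCR copies are not independent fragments. They rest on the shortest length that fits, which gives the fewest fragments and so the widest intervals.

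Whether regulators followed the effectors was asked with lists of pathway genes that hold none of the 10 members. The ligands were at the floor: of 11 interferon genes searched, 8 were found, none reached a mean of 1 FPKM, and 4 were listed at 0 in every rat. Ifnb1, the interferon beta gene, was at 0, 0 and 0.112 FPKM, and Ifng, the interferon gamma gene, at 0, 0.119 and 0. A listed 0 may be a failed estimate, and no order of the rats was read from such values.

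The receptors had another order than the effectors. All 6 receptor genes were highest in rat 35 as deposited, and all but Ifnlr1, then marginally highest in rat 19, with mitochondrial genes left out. Ifnar1, which encodes a chain of the type I receptor, was at 23.1, 45.3 and 26.3 FPKM, and Ifnar2, the other chain, at 13.9, 22.9 and 8.70. Ifngr1, of the interferon gamma receptor, differed more, at 74.2, 266 and 83.3, and Ifngr2 was at 20.9, 38.9 and 26.5. Among the chains shared with or used by interferon lambda, Il10rb was at 12, 32.3 and 6.46 and Ifnlr1 at 2.41, 2.84 and 0.363.

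Of the 7 signal transducers, 5 were highest in rat 35 and 2 in rat 19. Stat2, which carries the type I signal to the nucleus, was highest in rat 19 at 26.4, 25.7 and 12.7 FPKM, so that rats 19 and 35 lay close together, and its highest rat was 35 after rescaling to a common sum. Irf9, the DNA-binding partner of Stat2, was at 37.7, 43.8 and 20.7, and its highest rat was 19 with mitochondrial genes left out. Both Stat2 and Irf9 were therefore lowest in rat 70. The kinase gene Jak1 was highest in rat 35 (56.7, 83.4 and 67.0), as were Tyk2 (12.4, 19.1 and 9.76) and Stat3, a transducer of many cytokines (33.9, 54.3 and 32.4).

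The interferon regulatory factors other than Irf7 did not share its order. Of 7 searched, 5 reached a mean of 1 FPKM, and all 5 were highest in rat 35 and lowest in rat 70 as deposited, while Irf3 was highest in rat 19 with mitochondrial genes left out. Irf8, a factor of microglia and other myeloid cells, was at 58.6, 112 and 13.8 FPKM, and Irf5, another myeloid factor, at 13.0, 42.8 and 6.58. Irf3, which starts interferon beta transcription after sensing, was at 66.9, 73.6 and 32.1. Irf1 was at 12.9, 23.8 and 7.24.

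Among 13 measured sensors and adaptors, 10 were highest in rat 35, 2 in rat 19 and 1 in rat 70. The pair highest in rat 19 were Dhx58, which encodes the RNA helicase LGP2 (13.5, 11.3 and 5.38 FPKM), and Zbp1, a sensor of Z-form nucleic acid (3.84, 2.14 and 0.745). Ddx58, the gene of RIG-I, was at 7.81, 11.1 and 5.80, and Ifih1, the gene of MDA5, at 6.56, 7.06 and 3.81, with rat 19 highest when mitochondrial genes were left out. Tmem173, the gene of STING, was at 10.4, 24.3 and 5.71, and the RNA receptor gene Tlr3 at 5.46, 15.4 and 3.03. Both kinases that activate IRF3 differed from each other: Ikbke was highest in rat 35 (8.32, 21.8 and 4.30) and Tbk1 in rat 70 (14.3, 16.7 and 18.1).

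Of 13 negative regulators and nucleic acid enzymes, 9 were highest in rat 35 and 1 in rat 70. The 3 highest in rat 19 were Isg20, an exonuclease gene (2.55, 1.12 and 1.24), Adar, an RNA-editing gene (30.8, 29.8 and 29.7), and Rnaseh2a (17.6, 16.8 and 15.6), of which Adar hardly differed between rats and was highest in rat 70 under 2 of the 3 other scalings. Socs3, an inhibitor of cytokine signalling, was at 8.19, 14.2 and 4.91. The phosphatase gene Ptpn6, expressed in blood and myeloid cells, was at 32.8, 110.5 and 15.4, and the related Ptpn11 was the one highest in rat 70 (68.1, 55.0 and 131). Rnaseh2b was at 12.3, 19.9 and 6.71.

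**Figure D3:**
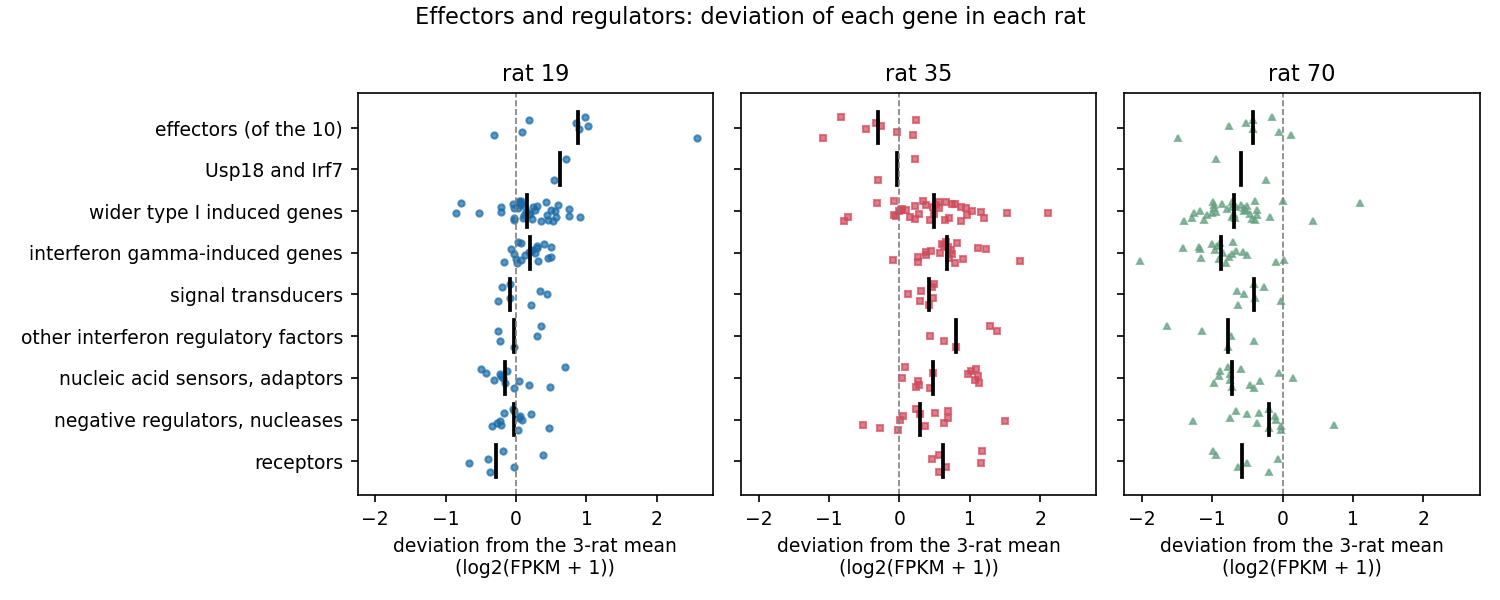
Deviation of each gene from its own 3-rat mean on the log2(FPKM + 1) scale, 1 panel per rat; points are genes whose mean reached 1 FPKM and black bars are list medians. The effectors have medians of 0.87, -0.30 and -0.42 in rats 19, 35 and 70, whereas receptors, transducers, other regulatory factors and sensors have their highest median in rat 35.

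Counted together, 44 regulators outside the 10 genes reached a mean of 1 FPKM. Rat 35 was highest in 35 of them, rat 19 in 7 and rat 70 in 2, beside 45.4%, 24.8% and 29.8% of all genes tested. With mitochondrial genes left out of the library totals the counts of regulators were 29, 13 and 2. As deposited, the direction in these regulators was that of the 10 members between rats 19 and 70, and not between rats 19 and 35. Between rats 35 and 70 the median difference of the members was that of all genes tested (0.14 each), so no direction of the members is read there. In Ifit2 and Ifit3, rat 70 was above rat 35 under each of the 3 other scalings. Without rat 35, rat 19 was above rat 70 in 36 of 44 regulators and in 9 of 10 members (58.4% of all genes), with a median difference of 0.47 and 1.22 (log2). Rat 19 was above rat 35 in 8 of 44 regulators and in 8 of 10 members (47.1% of all genes), with medians of -0.66 and 1.01. Rat 35 was above rat 70 in 41 of 44 and 7 of 10 (56% of all genes), with medians of 0.93 and 0.14. The 3 comparisons share rats, and the medians over all genes tested were 0.11, -0.05 and 0.14 in the same order. No difference between the lists was tested, since the members were chosen with the values known.

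A wider set of type I interferon-induced genes was split in the same way. Of 42 searched, 38 were found and 36 reached a mean of 1 FPKM. Rat 35 was highest in 22, rat 19 in 12 and rat 70 in 2, or 18, 17 and 1 with mitochondrial genes left out. As deposited, the shares of all genes tested were 45.4%, 24.8% and 29.8% in that order. In 34 of the 36, rat 19 was above rat 70 (58.4% of all genes), and in 13 it was above rat 35 (47.1% of all genes). The 12 highest in rat 19 included Ifi27 (224, 168 and 91.5 FPKM), Ifi44 (17.9, 12.2 and 9.87), Oas1a (8.91, 6.14 and 3.92), Samd9l (13.4, 11.4 and 3.81) and Lgals9 (33.5, 22.5 and 15.1). Herc6 was the member of this set in which rat 19 was over 2-fold above each other rat (17.3, 4.86 and 7.62). In mice Herc6 encodes the ligase that attaches ISG15.

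The other enzymes of ISG15 attachment were highest in rat 35 as deposited. Uba7, the activating enzyme, was at 10.4, 11.6 and 3.31 FPKM, and Ube2l6, the conjugating enzyme, at 11.2, 14.0 and 8.05. Trim25, a further ligase, was at 7.71, 25.3 and 7.20. Isg15 itself, its ligase gene Herc6 and its protease gene Usp18 were highest in rat 19, while Uba7, Ube2l6 and Trim25 were highest in rat 35, of which Uba7 was highest in rat 19 with mitochondrial genes left out.

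**Figure D4:**
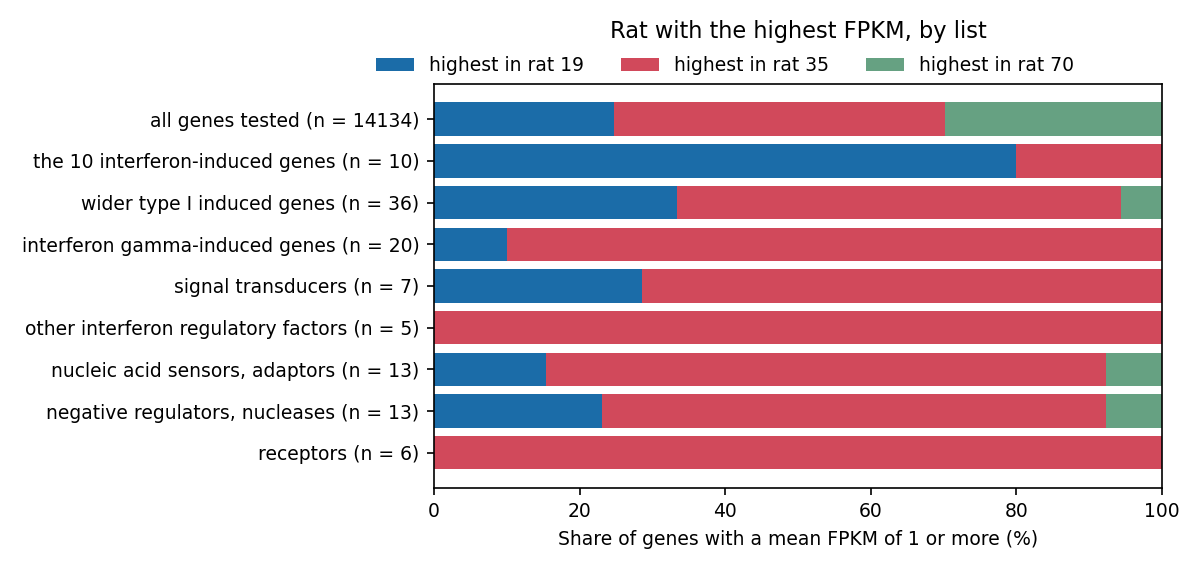
Share (%) of the genes of each list, at a mean FPKM of 1 or more, that had their highest value in rat 19, 35 or 70; n is the number of genes. Rat 19 takes 8 of the 10 interferon-induced genes but 12 of 36 wider type I genes, 2 of 20 interferon gamma-induced genes and none of the 6 receptors.

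Cell type markers differed between the rats too. The 8 microglial markers were all highest in rat 35 and lowest in rat 70, with summed FPKM of 695, 1881 and 521. Rat 35 was also highest in most regulators and in 2 of the 10 genes. Of 7 astrocyte markers, 4 were highest in rat 19 and none in rat 35, with sums of 3032, 1001 and 1875, and the other 3 were highest in rat 70. Aqp4 was at 113, 54.6 and 16.9 and Gfap at 1878, 564 and 688, while Slc1a2 was at 43.1, 30.1 and 119.7 and S100b at 721, 195 and 793. Endothelial markers were highest in rat 35 for 4 of 5 (157, 244 and 114). The 6 T cell markers summed to 5.36, 9.90 and 1.93, with Cd3d and Cd5 at 0 in rat 70. The 4 B cell markers found summed to 1.29, 1.44 and 0, and the 3 of plasmacytoid dendritic cells, which are strong producers of interferon, to 1.94, 2.33 and 0.0728, with Siglech and Spib at 0 in rat 70. The part of these cell types in the values of the 10 genes was not tested.

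The genes outside the pathway lists whose pattern lay closest to the median deviations of the members were Ccpg1os, Fnbp1l, Oxld1, Col9a3, RGD1311739, Fgfrl1, Atat1 and Pdgfc. Likeness was the Euclidean distance over the 3 deviations, among the 10387 genes whose mean reached 5 FPKM, and it ran from 0.056 for Ccpg1os to 0.123 for Pdgfc. Fnbp1l, for example, was at 25.5, 12 and 11 FPKM. Of the members, Mx2 lay closest to their median at 0.131 and Ifit1 farthest at 2.23. With 3 rats, many genes take any given pattern, and nothing on function follows from it.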

How the data were processed

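RNA was sequenced from 1 library per rat. The deposited values are FPKM: per the series' design text, the authors counted fragments per gene, applied a normalization of unstated kind and calculated FPKM by script. The submitters' processing notes list HISAT2 2.0.4, StringTie 1.3.0 and the build Rnor 6.0 and assign no role to any of them. File coordinates were taken to be in that build. Promoters came from a RefSeq table in GRCr8, searched with no coordinates moved between builds. FPKM was used as deposited, on the log2(FPKM + 1) scale for differences, with a mean of 1 FPKM as the minimum. With 1 group and no controls, no test between groups was made.

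Fragments were recovered from the FPKM steps: the cost of 1 fragment on 1 kb (0.0643, 0.0608 and 0.0623 FPKM) came from genes as long as their span, and each member's length was the shortest giving whole fragments in all rats, within 0.005. The recovery was tested on simulated data.

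The members and lists were chosen with earlier results of these data known. Named genes were the members, in each list those with the highest mean FPKM or the largest SD, and the 8 most like the members. Others named here for their position or role were chosen after their values were seen. Alternatives were a pseudocount of 0.1, other minima, a common sum of 1000000, median-of-ratios scaling, mitochondrial genes left out, and each rat left out. Python 3.11.15, pandas 2.3.3, numpy 2.4.6 and scipy 1.17.1 were used. The values of 1 gene of the pathway lists are not reported here.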

Additional observations from a re-analysis of the deposited data

How the results depend on the processing

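Rat 19 was highest in 7 to 9 of the 10 genes under every scaling and pseudocount tried, and with every detected gene kept. At a minimum mean of 5 FPKM, which Oasl did not reach, rat 19 was highest in 8 of the members left. This minimum is no independent check of that count. As deposited, Oasl was highest in rat 35, and Ifit1 passed through rat 19 alone (16.7, 0.411 and 0.0603 FPKM, mean 5.73). The genes that changed their highest rat were Ifit2, Ifit3 and Oasl. Rat 35 was highest in 1 member after rescaling to a sum of 1000000, by the median of ratios and at a mean of 5 FPKM, and in 0 with mitochondrial genes left out. Rat 70 was highest in 2, 1 and 1 after the 3 scalings. With mitochondrial genes left out, rat 19 was highest in 13 regulators, and rat 70 in 1 of the wider genes, as also at a mean of 5 FPKM. The scalings shifted the rats against each other by 0.17, 0.15 and 0.25 (log2).

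Leaving out each rat in turn gave a highest minus lowest median deviation of the members of 0.14 to 1.22, with the lowest value without rat 19, against 1.20 with all rats. Members over 2-fold apart numbered 1 to 6, again lowest without rat 19. The median deviation of rat 35 ran from -0.51 to 0.068 and changed sign without rat 19. The members highest in rat 35 numbered 2 to 7, and in rat 70, 1 to 3. Without rat 35 or 70, regulators highest in rat 19 numbered 36 or 8 and wider genes 34 or 13. Without rat 35 or 19, regulators highest in rat 70 numbered 8 or 3 and wider genes 2 or 4. With fewer rats compared, a remaining rat can only keep or gain genes in which it is highest. How many it gained depended on which rat was left out. Depth limits Ifit1, which rests on 1 or 2 fragments in rat 70, and the order of Ifit3 as deposited, which also changed with the scaling.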

Other observations

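The IFITM genes, which encode membrane proteins that hinder virus entry, were highest in rat 35, unlike the Mx genes. Ifitm1 was at 49.7, 392 and 37.0 FPKM in rats 19, 35 and 70, Ifitm2 at 73.6, 308 and 52.6, and Ifitm3 at 109.9, 288 and 65.4. Epsti1, another induced gene, was at 25.2, 55.3 and 9.06. Genes that interferon gamma induces, which serve antigen processing, guanylate binding and chemokine signalling among others, were listed too. Of 20 such genes at a mean of 1 FPKM or more, 18 were highest in rat 35 and 18 lowest in rat 70 as deposited. The shares of all genes tested were 45.4% and 44.2%. This list was not counted under the other scalings. Genes with both traits were, among others, Cd74 (59, 159 and 11), Psmb8 (7.48, 19.9 and 2.95), Psmb9 (12.4, 22.6 and 3.09), Psme1 (123, 141 and 37.6) and B2m (640.0, 1099 and 361). The exceptions in the highest rat were Gbp4, a guanylate-binding protein gene (2.37, 1.85 and 0.40), and Cxcl10, a chemokine gene (6.46, 5.68 and 6.21). Ifitm genes are similar to one another, so how their shared fragments were counted may bear on single values, which was not tested.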
